A study of Mus musculus with 2 samples.

Results

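The sites described here are open-chromatin intervals of mouse erythroblasts that entered the strict peak list when the data of both replicates were pooled but were in the strict list of neither replicate alone. ATAC-seq marks accessible DNA by where a transposase can insert adapters, and erythroblasts are the maturing nucleated cells that become red blood cells. The 2 libraries were biological replicates of 1 group, primary erythroblasts of adult male C57BL/6J mice of 5 to 6 weeks with 50000 starting cells each. There was no second condition, and the labels give both libraries the same donor identifier, although their biosamples are separate; spread between them may therefore be technical. Only peak lists in mm10 were analysed, and these carry no reads, so depth is unknown.

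The strict lists were thresholded on the irreproducible discovery rate (IDR), a measure of how consistently peaks rank in 2 inputs that are compared. The pooled strict list held 24700 distinct intervals on chromosomes 1 to 19 and X, and those of the replicates held 17766 and 18826. A pooled interval was a member when it shared no base with any interval of either replicate list. This rule gave 4948 pooled-only sites, 20.03% of the pooled list. A further 3857 pooled intervals overlapped 1 replicate list and 15895 overlapped both, and the latter are called shared sites below. The members were thus chosen on the peak calls, so their number, strength and recurrence are descriptions of the choice.

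Chromatin opens where transcription factors displace nucleosomes. In erythroid cells GATA1, working with TAL1 and LDB1 on DNA that carries a GATA motif beside part of an E-box, opens distal enhancers together with KLF1 and NFE2. Promoters rich in CpG are open in most cell types and carry motifs for SP, NFY, NRF1 and ETS factors. CTCF binds a long motif at boundaries and loop anchors across many cell types. The labelled cell type was checked by promoter openness in the replicate lists: 119 of 137 genes of 5 erythroid lists had an interval there in at least 1 replicate, against 21 of 196 marker genes of 10 other cell types and 0 of 20 hepatocyte markers among them. Over all protein-coding genes it was 9550 of 21755 (43.9%), and genes used in most cells had 31 of 33 (cell cycle) and 28 of 28 (housekeeping). The gene lists were written with earlier results of these data known, which limits the check.

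The sequences that follow are those of 8 pooled-only sites at or near genes of red cell biology, shown because they carry the motifs the comparisons turn on. Each reaches 75 bases to either side of the strongest summit, on the plus strand of GRCm38.p6 (RefSeq), the mm10 assembly, 5′ to 3′. Capitals mark GATA motifs in the Aco1 and Glrx5 windows and all motifs found in the others.
Aco1, intergenic, chr4:40134848-40134998: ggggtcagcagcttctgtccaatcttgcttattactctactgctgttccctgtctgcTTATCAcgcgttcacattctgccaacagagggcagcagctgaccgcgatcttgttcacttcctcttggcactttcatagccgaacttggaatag
Glrx5, intergenic, chr12:105073778-105073928: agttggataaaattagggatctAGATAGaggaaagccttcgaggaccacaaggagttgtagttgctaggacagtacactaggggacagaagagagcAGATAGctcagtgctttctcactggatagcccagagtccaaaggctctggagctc
Gata1, inside the gene, chrX:7968360-7968510: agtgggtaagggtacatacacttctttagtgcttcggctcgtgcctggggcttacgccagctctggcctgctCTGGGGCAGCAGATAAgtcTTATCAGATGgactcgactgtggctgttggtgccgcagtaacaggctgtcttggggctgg
Car1, promoter, chr3:14808406-14808556: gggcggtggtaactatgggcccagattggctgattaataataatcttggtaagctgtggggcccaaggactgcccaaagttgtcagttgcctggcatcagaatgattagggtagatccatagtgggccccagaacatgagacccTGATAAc
Olfr68 in the beta globin locus, chr7:103777814-103777964: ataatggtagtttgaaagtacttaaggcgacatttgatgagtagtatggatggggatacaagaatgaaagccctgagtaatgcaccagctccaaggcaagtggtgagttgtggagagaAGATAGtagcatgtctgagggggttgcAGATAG
Klf1 locus, at Dnase2a, chr8:84914088-84914238: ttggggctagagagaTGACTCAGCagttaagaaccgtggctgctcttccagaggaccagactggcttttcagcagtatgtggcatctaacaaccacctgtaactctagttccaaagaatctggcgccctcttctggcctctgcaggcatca
Hmox1, promoter, chr8:75093496-75093646: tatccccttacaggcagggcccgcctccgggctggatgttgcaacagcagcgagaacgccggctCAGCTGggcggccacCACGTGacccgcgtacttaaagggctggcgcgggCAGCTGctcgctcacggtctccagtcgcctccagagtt
Myb, promoter, chr10:21160970-21161120: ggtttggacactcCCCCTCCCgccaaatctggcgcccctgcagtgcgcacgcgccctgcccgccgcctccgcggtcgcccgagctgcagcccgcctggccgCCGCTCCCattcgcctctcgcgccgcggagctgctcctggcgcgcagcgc
The Gata1 window holds CTG followed at 7 to 8 bases by GATAA, the composite site of GATA1 with TAL1, and an opposite GATA motif that runs into an E-box. The Klf1 window holds the long NFE2 motif, the Hmox1 window holds E-boxes and the palindromic E-box CACGTG, and the Myb window holds KLF motifs and no GATA motif. The Car1 window has 1 GATA motif and the Olfr68 window has 2, all toward the 3′ end and away from the summit. The NFE2 motif of the Klf1 window lies toward the 5′ end, likewise away from the summit. A match describes the letters only.

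Pooled-only sites were weak and narrow beside shared sites. Enrichment, the fold of a summit over background as the authors' peak caller gave it, had a median of 4.76 in pooled-only sites, 5.90 in sites of 1 replicate and 8.75 in shared sites, all in the pooled list. The range over pooled-only sites was 1.56 to 9.98. The median −log10 p of the summit was 20.2, 31.4 and 95.2 in the same order, and the median width was 352, 423 and 798 bp. More than 1 summit was listed in 33.1% of pooled-only and 72.5% of shared sites. The classes overlapped in enrichment, as the distributions show, whereas 48.8% of pooled-only sites and 1 shared site had a −log10 p below 20.

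**Figure D1:**
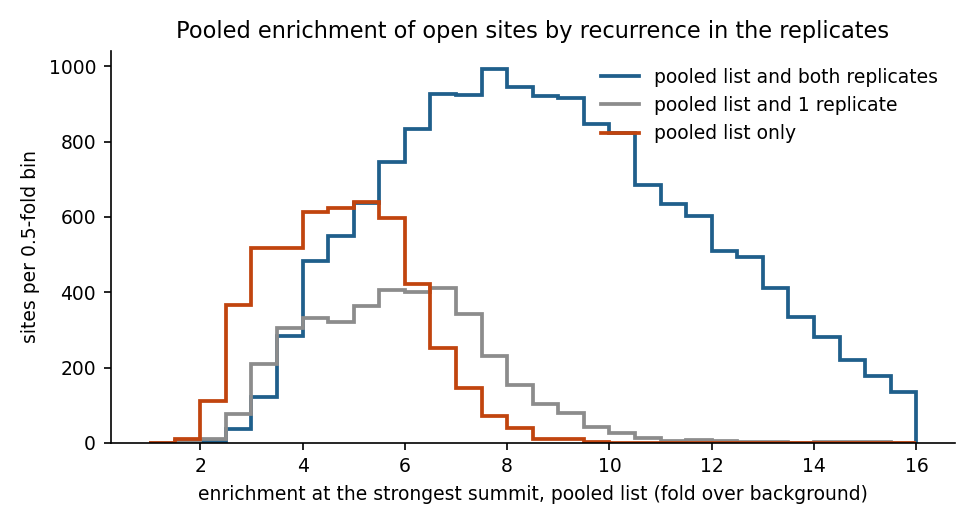
Number of pooled sites per 0.5-fold bin of enrichment (x axis, fold over background at the strongest summit, up to 16-fold) for sites of the pooled list only, of 1 replicate and of both replicates. The medians are 4.76, 5.90 and 8.75, and pooled-only sites end at 9.98 while shared sites run past the axis.

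The strict lists all began at a score of 540, the score being a whole number that rises with reproducibility up to 1000. Just inside this limit, at 540 to 559, lay 361 pooled-only sites with a median enrichment of 4.57 and a median −log10 p of 15.6. Just outside, at 520 to 539 in the longer ranked list that holds the whole pooled strict list, lay 363 intervals that likewise met no strict replicate interval, with medians of 4.39 and 15.2. Score and strength were not the same order: the Glrx5 site printed above scored exactly 540 with an enrichment of 7.10 and a −log10 p of 38.5, while another site at 540, on chromosome 1, had 3.26 and 18.8. Over all pooled-only sites the median score was 695.

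In each replicate most of these sites were present below the limit. The ranked list of replicate 1 held 81.4% of them and that of replicate 2 held 84.6%, with median scores of 345 and 360. A score of 500 to 539, next to the limit, was given to 343 sites in replicate 1 and to 398 in replicate 2. In each replicate 2 sites reached a score of 540 but were not in the deposited strict list.

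The 3597 sites ranked in both replicates, 72.7% of all, had a median enrichment of 4.65 in replicate 1 and 4.70 in replicate 2, which average 4.67 with an SD of 0.035 over n = 2 libraries. Across these sites the 2 values had a Pearson r of 0.771, sites not being independent replicates, and they lay within 1.5-fold of each other in 98.1%. Replicate 2 was the higher in 55.8% of them. The pooled enrichment of the same sites had a median of 5.11, above both replicate values in 60.8% and between them in 37.7%. In shared sites it was above both in 67.4% and between them in 31.8%. Significance moved further: the median −log10 p was 11.2 in replicate 1, 12.01 in replicate 2 and 21.4 in the pooled list, and the pooled value was 1.68 times the higher replicate value in the median site and above both in 3594 of 3597 sites. In shared sites the corresponding ratio was 1.85, with medians of 47.2, 50.4 and 95.2. Pooling thus went with a small shift in enrichment and a large one in −log10 p, a measure that also depends on depth. How the lists were put on a common scale is not stated.

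**Figure D2:**
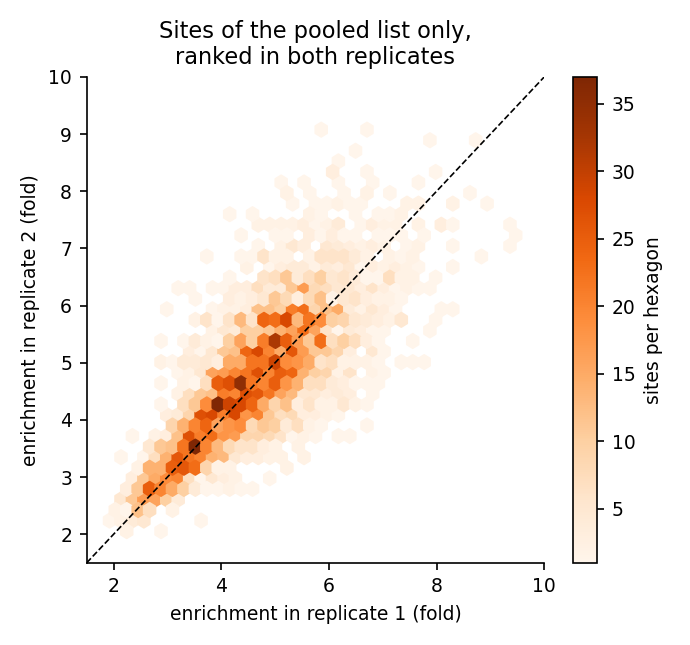
Enrichment in replicate 1 (x axis, fold) against replicate 2 (y axis, fold) for the 3597 pooled-only sites ranked in both replicates; colour gives sites per hexagon and the dashed line marks equal values. The sites spread along the line with medians of 4.65 and 4.70.

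The longer pseudoreplicated list of each replicate, which is less strict than the IDR list, overlapped 3586 pooled-only sites in both replicates (72.5%), 1023 in 1 replicate (20.7%) and 339 in neither (6.85%). Over all pooled sites 93.4% were in both less strict lists. The conservative pooled list, in which the inputs compared were the replicates themselves, held 72.1% of pooled-only sites and 92.9% of all pooled sites. These lists come from the calls that defined the members, so nothing is read from the gap. The 339 sites in neither less strict list had a median width of 203 bp and a median enrichment of 3.24, and 40.1% of them (95% Wilson interval 35.0 to 45.4%) had a shared site within 2 kb, against 22.4% of all pooled-only sites. One of them was a globin locus site (chr7:103873150-103873364, 20.03 kb from the Hbb-y 5′ end), with a pooled enrichment of 3.01 and a −log10 p of 26.9 but no rank in either replicate. It had a score of 869 in the pooled strict list and was also in the conservative list.

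Pooled-only sites lay mostly away from gene starts. A summit within 1 kb of any annotated start site, here called a promoter site, was found in 1365 of 4948 pooled-only sites, 27.6% (95% Wilson interval 26.4 to 28.8%), and in 59.8% of shared sites. The difference was −32.2 percentage points (95% Newcombe interval −33.6 to −30.7). Introns held 39.6% of pooled-only against 21.3% of shared sites, intergenic sequence held 28.2% against 15.97%, and exons held 4.65% against 3.01%. Over the whole pooled list the promoter share was 48.7%. Sites of 1 replicate stood close to the pooled-only sites, with 30.1%.

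The difference was smaller among sites of like significance. Among sites with a −log10 p of 20 to 40, a band that holds 2490 pooled-only sites but only 1379 shared sites, the promoter share was 27.3% in pooled-only and 32.1% in shared sites, a difference of −4.82 points (−7.86 to −1.82). Inside that band the shared sites were still the stronger, with a median −log10 p of 35.0 against 24.1. The promoter share of pooled-only sites stayed between 26.1% and 29.5% from a −log10 p of 10 up to 40 and was 42.9% (29.1 to 57.8%) of the 42 sites at 40 to 60. In shared sites it was 38.8% (31.9 to 46.1%) of the 178 sites at 25 to 30, 31.0% at 30 to 40, 36.1% at 40 to 60 and 50.8% at 60 to 100. Matching on enrichment in place of significance gave 26.4% against 45.9%. Enrichment is relative to a background, and it moved with the surroundings of a site: with the pooled-only sites split into 5 equal groups by enrichment, 65.3% of the lowest group and 0.808% of the highest had a shared site within 2 kb. The part of strength in the location difference was not tested further.

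**Figure D3:**
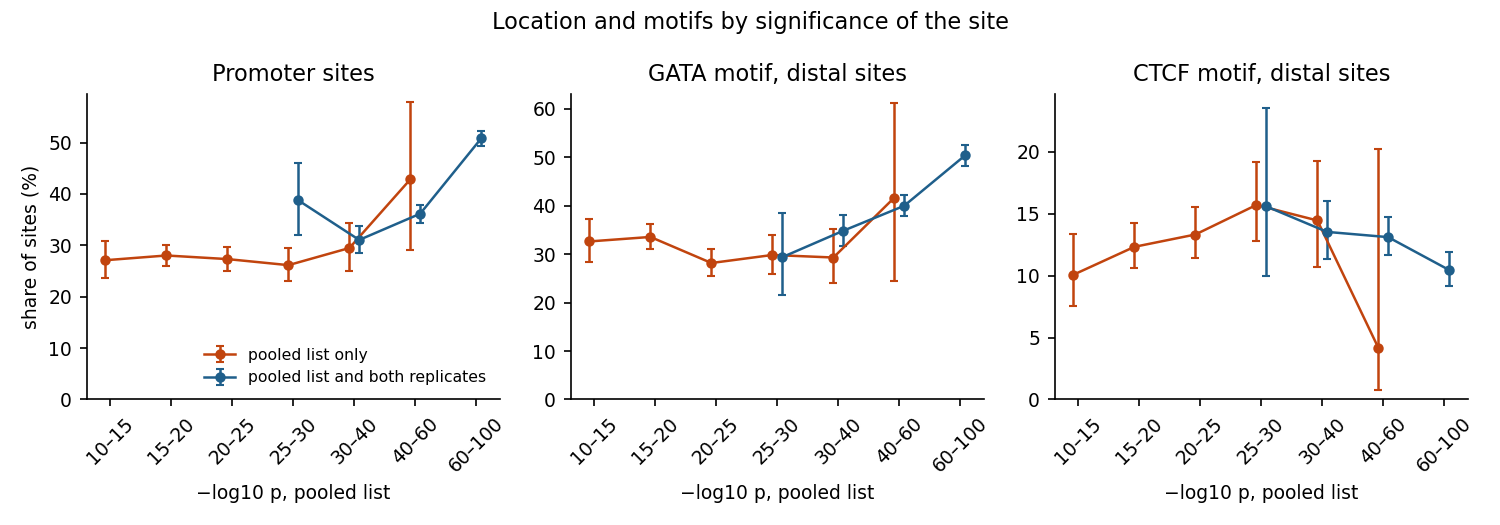
Share of promoter sites, and of distal sites with a GATA or a CTCF motif, in bins of −log10 p of the pooled list (x axis), for pooled-only and shared sites; points are shares in percent, bars are 95% Wilson intervals, and bins with fewer than 20 distal sites are left out. Where both classes have points, at 25 to 60, the intervals of the motif shares overlap, while those of the promoter shares do not at 25 to 30 (26.1% and 38.8%).

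Within the class, location changed with enrichment. The promoter share was 45.1% in the lowest of the 5 groups, 33.2% in the next, and 19.5% in the highest. The intergenic share was 17.4% in the lowest group and 40.1% in the highest. Pooled-only sites of low fold were thus more often at promoters and beside shared sites, and those of high fold were more often isolated.

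Pooled-only promoter sites were set off from the start site itself. Their summits lay a median of 278 bp from the nearest start, and those of shared promoter sites 53 bp. A start within 100 bp was found for 33.5% (31.0 to 36.0%) of pooled-only and 69.1% of shared promoter sites. The outermost 5′ end of a protein-coding gene lay within 1 kb of 47.1% against 78.8%. The nearest start belonged to a long noncoding RNA in 10.6% against 6.63%. A second, shared site lay within 2 kb of 41.0% of pooled-only promoter sites and of 17.8% of shared ones. In the −log10 p band of 20 to 40 the 2 classes came closer on each of these: a start within 100 bp in 33.5% against 41.1%, an outermost 5′ end in 45.6% against 52.4%, and a shared site within 2 kb in 39.4% against 32.5%.

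The promoter sites also differed in sequence. Observed over expected CpG in the summit window had a median of 0.523 in pooled-only and 0.821 in shared promoter sites, and in the −log10 p band it was 0.523 and 0.597. Motifs of CpG-rich promoters were scarcer. The ETS motif CCGGAAG was in 2.71% (1.97 to 3.71%) of pooled-only and 15.6% of shared promoter windows, the NFY motif (CCAAT followed by CA or GA or CG or GG) in 5.93% and 22.7%, and the GC-box GGGCGGG of SP factors in 18.3% and 38.7%. The NRF1 motif GCGCATGCG was in 0.440% against 3.02%. In the −log10 p band the gaps were smaller: 3.38% against 4.06% for ETS, 5.15% against 7.45% for NFY and 18.97% against 25.3% for the GC-box. Of these 3 only the GC-box difference, −6.31 points (−11.4 to −1.38), had an interval that leaves out 0.

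The distal pooled-only sites, 3583 in number and over 1 kb from any start, carried erythroid motifs less often than the 6397 distal shared sites. A GATA motif (AGATA or TGATA followed by A or G, on either strand) was within 75 bp of the summit in 31.0% (29.5 to 32.5%) of the former and 48.1% of the latter, a difference of −17.2 points (−19.1 to −15.2). Windows of the same length 1 kb to the side, clear of pooled peaks, held it in 22.7% and 22.9%, so pooled-only sites stood 8.24 points (6.43 to 10.1) above their own flanks. The composite motif, CTG followed at 7 to 8 bases by GATAA, overlaps GATA motifs in part and was in 2.87% against 5.42%, with 0.813% in the flanks of pooled-only sites. The KLF motif CCNCNCCC was in 19.98% against 27.7%, and in 13.3% of flanks. The long NFE2 motif GCTGANTCA was in 3.82% against 5.53%, and in 0.598% of flanks. Each of these motifs was thus more frequent at pooled-only summits than in their flanks and less frequent than at shared summits. The windows were not matched for base composition. Median GC was 46.4% in the flanks of distal pooled-only sites, 51.0% at their summits and 53.0% at distal shared summits. Its part in the motif shares was not tested. In the −log10 p band the last 3 came to 2.60% against 3.53% for the composite motif, 19.8% against 20.7% for KLF and 3.15% against 4.17% for NFE2. The composite difference there, −0.929 points (−2.45 to 0.380), had an interval that holds 0, and so did the KLF and NFE2 differences.

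A share over all locations together depends on their mix, and promoter sites made up 27.6% of pooled-only and 59.8% of shared sites. With these unlike mixes the GATA share was 27.1% in pooled-only and 27.0% in shared sites, promoter and distal sites differing in opposite directions. This near equality depended on the window and on matching: the difference was 5.14 points (3.58 to 6.70) with 150 bp to each side of the summit, 4.63 (3.28 to 6.02) around interval middles and −9.12 (−11.2 to −7.05) at matched enrichment. Among promoter sites it was 17.1% and 12.8%, both below their flanks (22.5% and 22.8%), but this order flipped to 16.8% and 21.6% at matched enrichment and 17.8% and 20.3% in the −log10 p band. The distal difference also narrowed with significance. In the −log10 p band it was 28.8% against 34.4%, a difference of −5.62 points (−9.33 to −1.96). Shared sites in this band had the higher median −log10 p, as given above. In the bins with at least 20 distal sites of both classes, the pooled-only and shared shares were 29.8% and 29.4% at 25 to 30, 29.3% and 34.8% at 30 to 40, and 41.7% and 39.97% at 40 to 60, where 24 distal pooled-only sites stood. None of these bins had intervals that stand apart. Distal shared sites reached 50.4% at 60 to 100. Distal sites of 1 replicate had it in 33.2%.

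Of the 20 motifs searched, CTCF was the one with a distal share higher in pooled-only than in shared sites by an interval that leaves out 0. The shares of PU.1, RUNX, STAT and E2F motifs were also higher, with intervals that hold 0 (for PU.1, 1.54% against 1.19%). The CTCF core CNAGGNGGC, a shortened form of the factor's motif, was in 12.8% (11.7 to 13.9%) of distal pooled-only sites, 10.4% of distal shared sites and 1.35% of the flanks of the former. The difference was 2.39 points (1.08 to 3.73). In distal sites of 1 replicate the share was 16.1%, above both. With enrichment held between 3.01 and 6.59 the classes stood at 13.2% and 8.22%, but in the −log10 p band they stood at 14.1% and 13.6%, a difference of 0.575 points (−2.22 to 3.22). Over all locations the difference was 2.55 points (1.55 to 3.58), and with 150 bp to each side of the summit it was 0.703 (−0.390 to 1.84). The call of a difference therefore changed with the matching and with the window. Within the pooled-only class the motif went up with enrichment, from 5.05% of all sites in the lowest of the 5 groups to 16.8% in the highest, while that of GATA was 30.4% in the lowest and 23.6% in the highest. Where a distal window held the CTCF motif, it lay within 25 bp of the summit in 78.8% (74.8 to 82.3%) of pooled-only and 70.4% (66.8 to 73.7%) of shared sites. For GATA these shares were 50.3% and 57.8%.

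**Figure D4:**
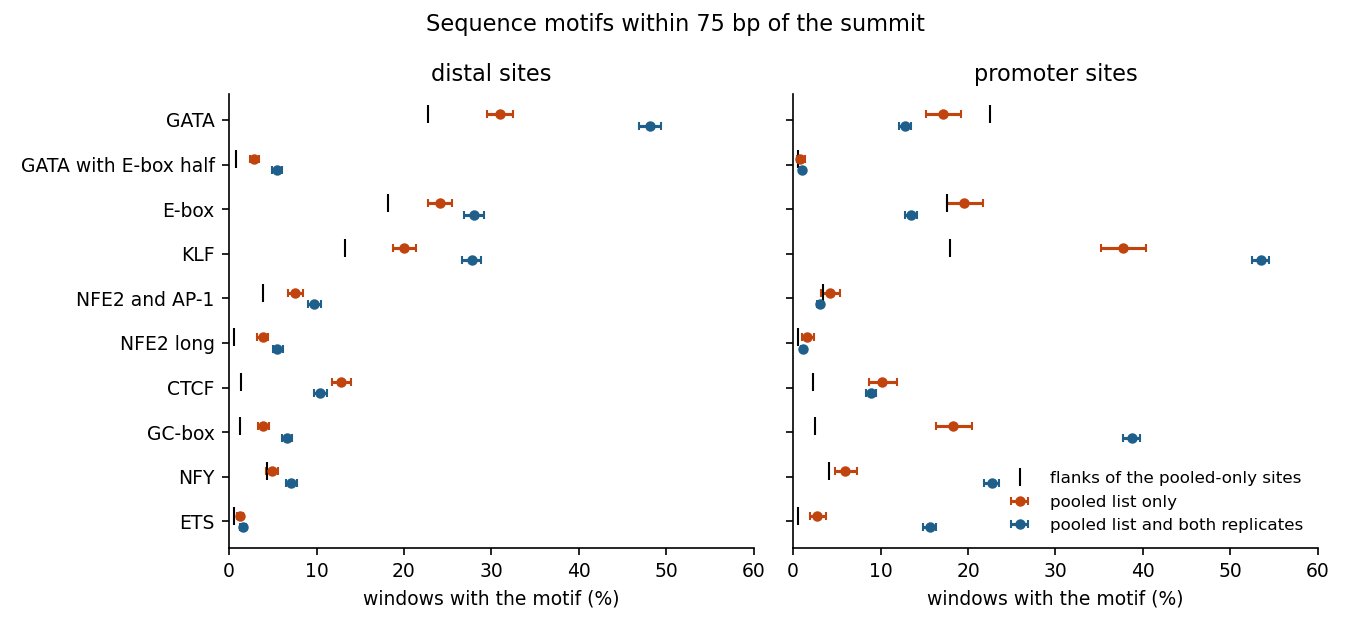
Share of summit windows with each motif (x axis, percent) in distal and promoter sites; circles are pooled-only and shared sites with 95% Wilson intervals and ticks are the flanks of the pooled-only sites. Distal GATA stands at 31.0% and 48.1%, distal CTCF at 12.8% and 10.4%, and promoter ETS at 2.71% and 15.6%.

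Windows with at least 50% of their bases masked as repeats made up 8.16% (7.43 to 8.96%) of pooled-only and 1.93% of shared sites, and 9.88% against 4.08% of distal ones. In the −log10 p band the distal shares were 10.1% and 8.23%, a difference of 1.83 points (−0.504 to 3.998). By chromosome the pooled-only share of pooled sites ran from 18.2% on chromosome 11 to 22.5% on chromosome 14, with 21.1% on X, and the intervals of these 3 shares overlap.

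The 10 strongest pooled-only sites by enrichment had pooled values from 9.14 to 9.98 and stood in the conservative list and both less strict replicate lists. The highest was at the promoter of Zmat3 (chr3:32365592-32366103), which encodes a p53-induced RNA-binding zinc-finger protein, with 8.82 in replicate 1 and 8.92 in replicate 2. Other promoter sites among them were at Gnpnat1, an enzyme of amino-sugar synthesis (9.39 and 7.30), Elf4, an ETS factor (7.78 and 8.96), and Dnah11, an axonemal dynein heavy chain (9.43 and 7.06). Distal ones were an intergenic site 27.4 kb from Slc38a1, an amino acid transporter (9.43 and 7.40), an intronic site of Jmjd1c, a histone demethylase family member (7.66 and 8.25), and an intergenic site 14.3 kb from Ddx1, an RNA helicase (8.25 and 7.33). The remaining 3 were an exonic site of Usp51, a deubiquitinase (8.54 and 8.01), and intergenic sites near Fam43b (8.88 and 7.74) and Rtl9 (7.99 and 8.34). A GATA motif was in 0 of these 10 windows, a CTCF motif in those of Rtl9 and Dnah11, and a GC-box in those of Usp51, Gnpnat1, Elf4 and Dnah11. Neither replicate was the higher throughout.

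At promoters, pooling added few protein-coding genes. Of 21755 such genes 9550 had an interval of a replicate list within 1 kb of a start site. Pooled-only sites reached the promoters of 1120 genes, but for 394 genes, 1.81% of all, no replicate interval did. Among genes of the erythroid lists 18 had no replicate interval at a promoter, and pooled-only sites reached 7 of these, 38.9% (20.3 to 61.4%). The same share was 3.23% over all protein-coding genes (394 of 12205) and 0.571% over the 10 lists of other cell types (1 of 175), most of whose genes had no open promoter in a replicate. These bases are unlike: 11811 of the 12205 genes, but 11 of the 18 erythroid ones, had neither kind of promoter site. Taken over whole lists, the shares lay closer. Promoters reached only by pooled-only sites made up 5.11% (2.50 to 10.2%) of the 137 erythroid genes and 1.81% of all protein-coding genes. Of the lists of genes used in most cells, cell cycle genes had 1 of 2 and housekeeping genes had none without a replicate interval.

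Those 7 genes were spread over all 5 erythroid lists. Of the globin genes they were Hbq1b, a theta-type globin of the alpha cluster, and Hbb-bh2, of the beta cluster. The Hbq1b site (chr11:32286800-32287068) had an enrichment of 1.957 in replicate 1, 2.20 in replicate 2 and 2.19 in the pooled list, the lowest pooled value of the sites named here. Hbq1b has a near-identical copy, Hbq1a, and reads could have been split between them, so its value is uncertain. The Hbb-bh2 site (chr7:103840223-103840769) had 3.40 and 4.06, and 4.53 when pooled.

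Myb, a transcription factor of proliferating progenitors, had 2 pooled-only sites. The one 0.061 kb from a start (chr10:21160931-21161425) had 3.65 and 3.29 in the replicates and 3.60 in the pooled list. The other, inside the gene and 0.825 kb from a start, was ranked in replicate 2 with 3.11 and not in replicate 1, and its pooled value was 2.88. Hmox1, which encodes heme oxygenase 1 and breaks down heme, had 4.07 and 4 (pooled 4.22). The SD over the 2 replicates was 0.254 for the first Myb site and 0.047 for Hmox1.

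Kcnn4, the calcium-activated potassium channel of the red cell membrane, had 2.18 and 2.51 (pooled 2.28). Car1, carbonic anhydrase 1, had 5.11 and 3.74 (pooled 4.93). Pklr, the red cell and liver pyruvate kinase, had 3.87 and 4.08 (pooled 4.09), with a CTCF motif and no GATA motif in the window. Replicate 1 was the higher for Car1, the first Myb site and Hmox1 and replicate 2 for Hbq1b, Hbb-bh2, Kcnn4 and Pklr. Outside the erythroid lists Cdkn1a, the cell cycle inhibitor p21, had 3.23 and 3.92, and Blnk, an adaptor of the B cell receptor, had 4.46 and 3.99. Of the sites at these 9 genes those of Hbb-bh2, Kcnn4, Car1 and Cdkn1a and the second of Myb were not in the conservative list.

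Pooled-only sites lay near many erythroid genes. Within 50 kb of the 5′ end, 96 of 137 erythroid genes had at least 1, 70.1% (61.9 to 77.1%), against 33.9% of all protein-coding genes. By list the counts were 10 of 10 globin genes, which share a few sites within their 2 clusters, 22 of 30 transcription regulators, 18 of 32 heme and iron genes, 21 of 32 membrane and cytoskeleton genes and 25 of 33 receptor, signaling, survival and maturation genes. Genes used in most cells were similar, with 23 of 33 cell cycle genes (69.7%) and 18 of 28 housekeeping genes (64.3%). The 10 lists of other cell types had 61 of 196, 31.1% (25.1 to 37.9%), from 1 of 20 hepatocyte markers to 10 of 18 B cell markers.

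Part of this went with the density of shared sites. Protein-coding genes with no shared site within 50 kb had a pooled-only site there in 10.8% of cases, those with 1 or 2 in 36.7%, those with 3 to 5 in 54.3% and those with 6 or more in 70.2%. Erythroid genes had 2 of 8, 52.6% (10 of 19), 65.1% (28 of 43) and 83.6% (56 of 67) in the same strata, a higher share in each. The interval of the last, 72.9 to 90.6%, leaves out the 70.2% of all genes. Globin genes share sites, and without them, a step chosen after seeing the data, the last stratum had 46 of 57, 80.7% (68.7 to 88.9%). The intervals of all strata then hold the value of all genes, but the erythroid share stayed the higher in each. Over the 127 erythroid genes other than globin genes, 86 had a pooled-only site within 50 kb (67.7%). Erythroid genes had a mean of 1.32 pooled-only and 5.58 shared sites within 50 kb, a ratio of 0.237, and all protein-coding genes had 0.496 and 2.03, a ratio of 0.244.

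**Figure D5:**
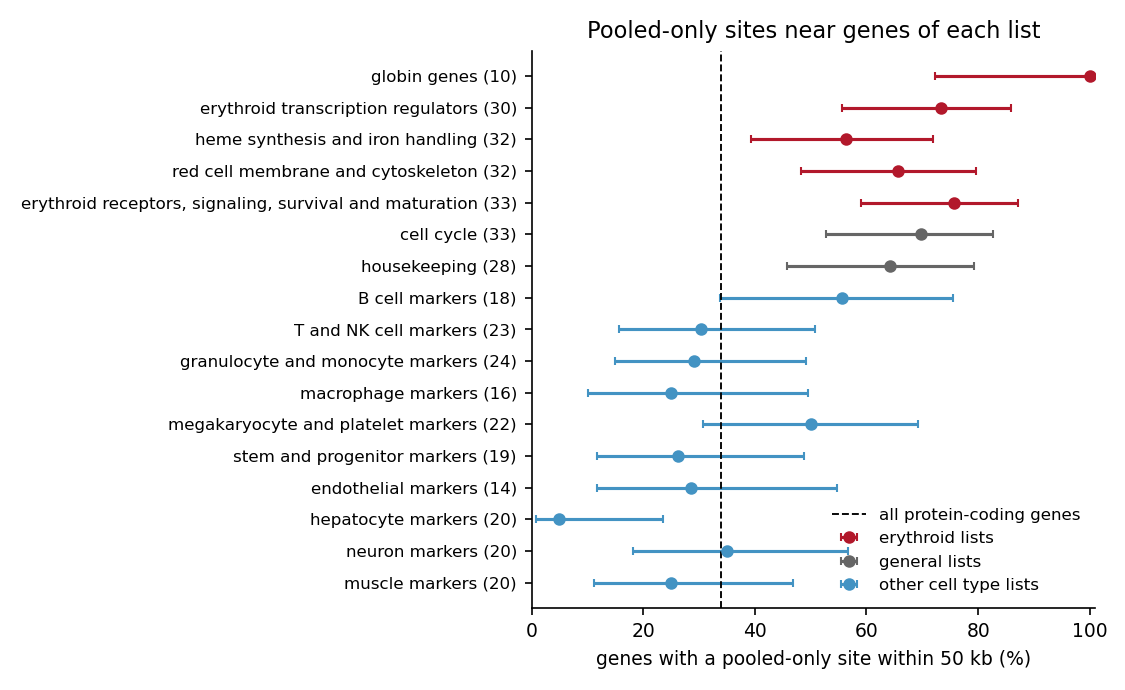
Share of genes with at least 1 pooled-only site within 50 kb of the 5′ end (x axis, percent) for each gene list, with the number of genes in brackets; bars are 95% Wilson intervals and the dashed line is the 33.9% of all protein-coding genes. The 5 erythroid lists lie from 56.3% to 100%, the cell cycle and housekeeping lists at 69.7% and 64.3%, and hepatocyte markers at 5%.

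Globin genes had a mean of 2 pooled-only and 11.5 shared sites within 50 kb. The alpha cluster had 2, the Hbq1b site and one at a start of Nprl3 (chr11:32267885-32268377), the gene whose introns hold the alpha globin enhancers, with 2.46 and 2.31 in the replicates and 2.44 when pooled. The beta cluster had 3: the Hbb-bh2 site, the unranked site described above, and the Olfr68 site (chr7:103777453-103778118) 36.1 kb from the Hbb-bt 5′ end, at an olfactory receptor gene. The Olfr68 site differed between replicates, with 5.30 and 7.12 (SD 1.28, n = 2), and reached 7.28 when pooled.

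Gata1, the master regulator of red cell formation, had 3 within 50 kb. The one inside Gata1 with the composite motif (chrX:7968330-7968564), 9.64 kb from the 5′ end and 0.525 kb from an internal start, had 3.28 and 3.36 in the replicates and 3.40 when pooled. The others were in an intron of Glod5 (5.45 and 6.48) and an exon of Hdac6 (4.40 and 4.95), with no GATA motif. Klf1, which activates adult beta globin, had 1, 0.772 kb from a start of Dnase2a and 12.2 kb from Klf1 (chr8:84914034-84914317), with 2.87 and 2.98 (pooled 2.92). Pooled values of this Klf1 site and the composite-motif Gata1 site fell in the lowest of the 5 enrichment groups, 1.56 to 3.49. So did those of the Nprl3, Hbq1b and unranked beta cluster sites. The Hbb-bh2, Olfr68, Glod5 and Hdac6 sites lay above that group. The Gata1 site with the composite motif and the Klf1 site with the off-summit NFE2 motif had SDs over the 2 replicates of 0.056 and 0.081.

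The strongest distal sites near genes of the other erythroid lists, chosen by pooled enrichment, were as follows. Around Aco1, the iron-regulated cytosolic aconitase, an intronic site 40.03 kb from the 5′ end had 7.36 in replicate 1, no rank in replicate 2 and 7.60 when pooled. The upstream Aco1 site printed above, 8.16 kb from the 5′ end, had 6.19 and 6.15 (pooled 7.11). The Glrx5 site, 41.2 kb from the gene for a mitochondrial iron-sulfur cluster protein, had 6.49 and 6.83. A site 18.5 kb from Mafg, a small MAF partner of NFE2, had 5.23 and 6.25, and one 41.3 kb from Ldb1, the cofactor that joins GATA1 complexes, had 6.09 and 5.01.

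Of the membrane genes, the site 38.2 kb from Slc4a1, which encodes the anion exchanger band 3, had 5.28 and 5.29, that 19.4 kb from Slc14a1, a urea transporter, had 5.65 and 4.57, and that 6.87 kb from Tpm3, a tropomyosin, had 5.10 and 5.34. Among maturation genes, a site 22.9 kb from Trim10 had 6.45 and 6.71, one 34.3 kb from Sod1, superoxide dismutase 1, had 5.41 and 7.09, and one 49.9 kb from Bnip3l, a receptor for mitophagy, had 4.89 and 4.81. Of the 12 strongest distal sites near genes of the 4 non-globin erythroid lists, GATA motifs were found in the Aco1 upstream and Glrx5 windows only. Over all distal pooled-only sites 31.0% held a GATA motif, as did 22.7% of their flanks, so these 12 show no excess of it. Linking a site to a gene rests on distance alone here, and the listed gene was often not the nearest. Another gene's start was nearest to the sites given for Mafg (Myadml2, 3.91 kb), Ldb1 (Nolc1, 10.5 kb) and Slc4a1 (Ubtf, 8.30 kb). The same held for Slc14a1 (Slc14a2, 17.6 kb), Tpm3 (4933434E20Rik, 2.98 kb), Trim10 (Trim40, 2.40 kb) and the Glod5 site near Gata1. For the Aco1, Glrx5, Sod1 and Bnip3l sites the listed gene had the nearest start.

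Several genes had many pooled-only sites nearby; of genes with overlapping windows 1 is named, and ties are taken by symbol. Per1, a circadian clock repressor, and Relb, a subunit of the NF-κB factors, each had 7 pooled-only sites within 50 kb, beside 11 and 4 shared sites. AI467606, Gdf15, a secreted factor of the TGF-beta family, Npm2, Rabepk and Rundc3a each had 6, beside 6, 6, 4, 9 and 11 shared sites. 9430097D07Rik, Adam33 and Aqp9, a water and glycerol channel, each had 5, beside 6, 1 and 6 shared sites. These windows also held other genes: protein-coding starts within 50 kb numbered from 2 at Aqp9 to 8 at Per1. The sites may therefore lie nearer to another gene. Of all protein-coding genes 66.1% had none and 22.8% had 1.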

How the data were processed

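Only deposited peak lists were used, and the members and gene lists were chosen with earlier results of these data known. Per the labels and file listings, the authors made the lists in mm10 from 1 replicate or both; names and settings of the aligner and peak caller were not given in the sources used here. Scores, as deposited by the authors, are whole numbers of at most 1000. The deposited enrichment is a fold (ratio) over background, and each deposited summit has a −log10 p and, in another column, its offset. Ranked lists add the peaks of the 2 compared inputs.

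Lines of 1 interval were merged, its strongest summit gave its place, and overlap was at least 1 bp. Start sites came from GENCODE M21 and sequence from GRCm38.p6. Of the names in the gene lists only Darc was unmatched. In all, 20 motifs were sought on both strands. Named were the 10 strongest sites, all near the Hba, Hbb, Gata1 and Klf1 genes, the 3 strongest distal sites per erythroid list, list genes reached only by such a site, and the 10 genes with most sites. Shares have 95% Wilson or Newcombe intervals, for counting error only; sites are not replicates, so no p-value was computed. Overlap, location and motif steps were tested on simulated data. Python 3.11.15 with numpy 2.4.6, pandas 2.3.3 and pysam 0.24.0 was used.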

Additional observations from a re-analysis of the deposited data

How the results depend on the processing

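Other overlap rules, stricter lists, matched bands, windows and each replicate alone were tried. Matching on a −log10 p of 20 to 40 was chosen after seeing the data. In points, pooled-only minus shared, the promoter difference became −29.2 above the lower quartile of −log10 p, −19.5 at matched enrichment, −4.82 at matched −log10 p, −35.7 with 500 bp and −34.4 with protein-coding starts. The GATA difference became −1.72, −9.12 and −4.09 under the first 3 of these, 4.63 at interval middles, 5.14 with 150 bp to each side, −17.2 at distal sites and −5.62 at distal sites of matched −log10 p. The ETS difference became −1.93 at matched enrichment, reversed to 0.0824 (−0.903 to 0.945) at matched −log10 p, and was −4.68 at middles, −6.31 and −10.4 with 50 and 150 bp, and −0.335 at distal sites. The CTCF difference became 4.90 above the quartile, 0.208 at matched −log10 p, 0.703 with 150 bp and 0.575 at distal sites of matched −log10 p. Above the quartile the sites numbered 459, with 94.1% in both less strict lists, 49 genes reached only by them and 12 erythroid genes nearby; these are fewer sites by construction. The share in both less strict lists was 74.0% when at least 50% of the interval had to overlap and 65.9% with the conservative list as the pooled list. Using 1 replicate alone gave 6427 to 7326 sites, a promoter difference of −29.0 to −27.5, a GATA difference of 0.0706 to 0.475, an ETS difference of −7.70 to −7.04, a CTCF difference of 2.52 to 2.85, a less strict share of 77.5% to 79.0%, 552 to 669 genes and 100 to 112 erythroid genes. Leaving out the globin genes, also chosen after seeing the data, gave 86 erythroid genes. Of the alternatives 42 stayed within the stated error or 1.5 times, 34 moved further and 1 reversed. Causes were not tested. No paired analysis was possible because there was 1 group. The lists hold no depth, so weak opening and low depth cannot be told apart.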
